A study of Mus musculus with 6 samples.

Results

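Chemokines are small secreted proteins that draw white blood cells along a gradient, and their receptors are G protein-coupled receptors on the cells that follow it. They are grouped by the spacing of the first cysteines of the ligand into CC, CXC, CX3C and XC families. In a heart under pressure overload they are known for recruiting monocytes, neutrophils and T cells into the wall, while atypical receptors bind ligands without G protein signalling and take them out of circulation or hold them on endothelium. Here the chemokine and chemokine receptor genes of the mouse were followed in the left ventricle 4 weeks after aortic banding (AB), a surgical narrowing of the aorta that loads the ventricle. The members were the protein-coding rows whose symbols name a CC or CXC ligand or receptor, together with Cx3cl1, Cx3cr1, Xcl1, Xcr1 and Ackr1 to Ackr4. This gave 65 of 54532 rows of the count table, with 59 distinct symbols, of which 44 were ligand rows and 21 receptor rows. The rule leaves out 1 CC receptor, which is not reported here.

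TG mice were compared with NTG mice, with 3 libraries each. The labels give the TG genotype as HINT2CTG-Myh6Cre, a HINT2 transgene behind a CAG promoter whose stop signal is removed by a tamoxifen-dependent Cre under the cardiomyocyte promoter Myh6, and the NTG genotype as C57BL/6J. HINT2 is a mitochondrial nucleotide hydrolase. All animals were banded males that were 8 to 10 weeks old at surgery, and no sham-operated library was analysed here. Whether the NTG mice carried Cre or received tamoxifen is not stated in the sources used here, so transgene, Cre and tamoxifen cannot be told apart. The transgene acts in cardiomyocytes, whereas chemokines and their receptors are made largely by other cells of the ventricle. Nothing says that a library pools several hearts, and p-values measure the spread between these 6 libraries.

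Libraries held 14863568 to 17581220 counts on genes, of which the members took 10379 to 23187. Cardiomyocyte markers were high in every library, with summed levels of 17018 to 28762 CPM (counts scaled to a common library size, with the TMM method of edgeR) in NTG and 27855 to 34803 in TG. Hint2, the targeted gene, had 12, 545 and 559 counts in NTG 1, NTG 2 and NTG 3, and 793, 828 and 859 in TG 1, TG 2 and TG 3. The library labelled NTG 1 thus stood far below the other NTG libraries in Hint2. The cause was not tested, every NTG mean and fold change below includes this library as labelled, and the members whose calls change without it are given with those values. The log2 fold change of Hint2 was 1.33 ± 0.86 (SE) at an edgeR adjusted p of 0.433, and without NTG 1 it was 0.77 and called higher at an adjusted p of 0.0212. NTG 2 stood apart in another way, with the highest levels of macrophage, neutrophil, fibroblast and erythroid markers among the 6 libraries and the lowest summed level of cardiomyocyte markers. These tissues are bulk samples, in which fewer cells of a type and less RNA per cell cannot be told apart.

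RefSeq promoters (GRCm38.p6) were found for 44 of the 59 symbols, and those of 4 members are printed: these genes had an unadjusted p under 0.05 between TG and NTG, a RefSeq start that adjoins the deposited gene and at least 1 of the motifs searched. Each line holds the 250 bases before the RefSeq start on the strand of the gene. Capitals mark matches, on either strand, to the TATA box (TATAAA), the ISRE core (GAAANNGAA), the GAS element (TTCNNNGAA), the AP-1 site (TGANTCA) or the NF-kB site, with N for any base. Cxcl9 lies at chr5:92328080-92328329 and Cxcl10 at chr5:92348890-92349139, both on the minus strand. Cxcl14 lies at chr13:56296552-56296801 on the minus strand and Ackr2 at chr9:121898105-121898354 on the plus strand.
Cxcl9: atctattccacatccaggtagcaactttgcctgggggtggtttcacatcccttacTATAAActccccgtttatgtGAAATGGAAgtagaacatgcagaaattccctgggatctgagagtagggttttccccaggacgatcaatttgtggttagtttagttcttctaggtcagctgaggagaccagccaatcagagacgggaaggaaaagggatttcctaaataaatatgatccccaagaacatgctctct
Cxcl10: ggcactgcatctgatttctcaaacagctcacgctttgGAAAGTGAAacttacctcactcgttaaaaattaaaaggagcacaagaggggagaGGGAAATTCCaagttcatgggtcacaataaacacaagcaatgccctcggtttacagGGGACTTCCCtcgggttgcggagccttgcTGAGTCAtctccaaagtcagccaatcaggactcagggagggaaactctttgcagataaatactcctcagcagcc
Cxcl14: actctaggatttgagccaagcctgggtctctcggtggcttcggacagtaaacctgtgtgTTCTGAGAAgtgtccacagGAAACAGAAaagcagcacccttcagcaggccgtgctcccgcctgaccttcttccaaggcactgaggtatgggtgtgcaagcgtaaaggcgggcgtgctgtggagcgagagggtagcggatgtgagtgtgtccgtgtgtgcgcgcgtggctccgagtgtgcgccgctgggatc
Ackr2: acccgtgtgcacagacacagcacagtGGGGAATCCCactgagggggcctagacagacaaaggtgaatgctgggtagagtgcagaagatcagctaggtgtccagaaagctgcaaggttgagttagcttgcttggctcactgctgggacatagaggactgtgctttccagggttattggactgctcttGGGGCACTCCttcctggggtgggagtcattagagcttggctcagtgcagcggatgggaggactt

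The Cxcl9 window holds a TATA box that starts 195 bases and an ISRE core that starts 175 bases before the RefSeq start. In Cxcl10 an ISRE core starts at 213 bases, NF-kB sites at 159 and 103 bases, and an AP-1 site at 74 bases before it. Cxcl14 has a GAS element at 191 bases and an ISRE core at 172 bases. Ackr2 has NF-kB sites at 224 and 64 bases. The NF-kB site was found in 8 of the 44 member windows, or 18.2%, against 3.75% of the 27025 symbols of the promoter table. The ISRE core was in 7 windows, or 15.9%, against 7.16%, with 6 of the 27 ligands and 1 of the 17 receptors. TATA boxes were in 27.3% against 13%, AP-1 sites in 11.4% against 6.87% and GAS elements in 6.82% against 7.18%. A match is a run of letters and not a measured site, and none of the letters were compared with binding data.

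Of the 65 member rows, 37 had enough counts to be tested, with 24 ligands and 13 receptors. The spans of 11 of them overlap another annotated gene. TG and NTG were compared with the quasi-likelihood test of edgeR, with Benjamini-Hochberg adjustment over all 14774 genes tested, and the thresholds for a call were 0.05 for the adjusted p and 0.5 for the absolute log2 fold change. By this rule 0 members were called in either direction, as were 0.0% of all genes in each direction, and the adjusted p of the members ran from 0.196 to 0.998. At an unadjusted p under 0.05, 3 members were higher in TG (Cxcl9, Ccl2 and Cxcl10), which is 8.11% of those tested against a background of 8.83% of all genes. Lower were 6 (Ackr2, Cx3cl1, Ackr4, Ccr1, Cxcl14 and Cxcr2), which is 16.2% against 9.76%. Levels of TG and NTG did not overlap in 2 members with TG above (Ccl2 and Ccl27a), 5.41% against 11.2% of all genes, and in 3 with TG below (Cx3cl1, Ccr1 and Ackr2), 8.11% against 12.3%. So the share of members at either rule lay near or below that of all genes, except for the members lower in TG at an unadjusted p.

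Signs of the estimates were counted for ligands and receptors, and the difference between them was not tested. Of the 24 ligands tested, 15 had a higher level in TG and 9 a lower one, with a median log2 fold change of 0.31, while over all genes 7196 were higher and 7578 lower. Among the 13 receptors, 3 were higher and 10 lower, with a median of -0.83. All 37 had a median of -0.24, against -0.01 over all genes tested, and this median turned to 0.06 without NTG 2 and to 0.02 with DESeq2 without a low-count filter. DESeq2, the tool of the study, called 2 members lower, Cx3cl1 at an adjusted p of 0.00719 and Ackr2 at 0.0325, and 0 higher. Of all genes it called 2.4% lower and 1.54% higher. Because only edgeR's quasi-likelihood test is the main test here, the values below are described as higher or lower and not as changed.

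**Figure D1:**
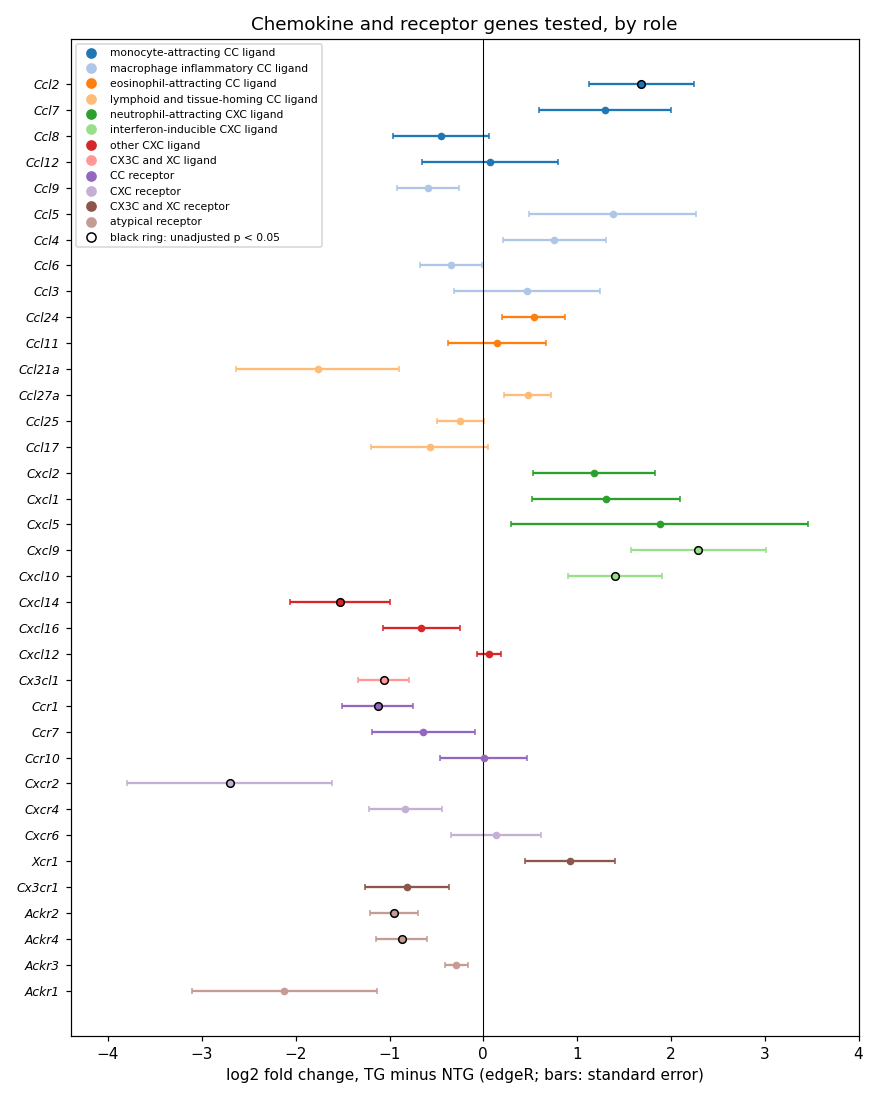
Log2 fold change of TG against NTG (horizontal axis, edgeR) for 36 of the 37 members tested, in rows by role. Points are estimates, bars are standard errors, and a black ring marks an unadjusted p under 0.05, which 3 members to the right of 0 and 6 to the left of it carry.

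Among the CC ligands that attract monocytes, Ccl2 and its neighbour Ccl7 had the largest estimates. Ccl2 (ENSMUSG00000035385, chromosome 11, 82035571 to 82037453, plus strand), the main monocyte attractant, stood at 3.96, 12.2 and 6.54 CPM in NTG 1, NTG 2 and NTG 3 and at 14.9, 15.3 and 43.3 CPM in TG 1, TG 2 and TG 3. Every TG library lay above every NTG library, and TG 3 held by far the highest level. Mean levels were 24.5 ± 16.3 CPM in TG and 7.55 ± 4.19 CPM in NTG (SD, n = 3), a fitted 3.21-fold difference and a log2 fold change of 1.68 with a standard error of 0.56, at an adjusted p of 0.217 with edgeR. Without TG 3 the log2 fold change was 0.99, and without NTG 2 it was 2.21. Ccl2 lies wholly inside the annotated gene Gm17268 on the opposite strand, and since the strand setting of the counting is not stated, reads of both cannot be told apart.

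Ccl7, which attracts monocytes through several CC receptors, stood at 1.98, 8.497 and 3.07 CPM in NTG and 6.42, 5.86 and 21.4 CPM in TG, in the order of the library numbers that is kept from here on. The groups overlapped at NTG 2, and the log2 fold change was 1.3 ± 0.70 (SE) with an edgeR adjusted p of 0.358, 0.43 without TG 3 and 2.14 without NTG 2. Ccl12 stood at 1.37, 9.51 and 3.76 CPM in NTG and 1.95, 5.63 and 7.90 CPM in TG. Ccl8 stood at 7.30, 14.2 and 7.75 CPM in NTG and 2.88, 6.197 and 12.3 CPM in TG. For these last genes the groups overlapped widely, with log2 fold changes of 0.07 ± 0.73 for Ccl12 and -0.45 ± 0.51 for Ccl8. Leaving out single libraries moved Ccl12 between -0.365, without TG 3, and 0.998, without NTG 2. The value of Ccl8 came to -0.07 without NTG 2, to -0.08 without TG 1 and to -1.1 without TG 3, the last at an unadjusted edgeR p of 0.0363 and an adjusted p of 0.425. The 4 ligands summed to 14.6, 44.4 and 21.1 CPM in NTG and 26.1, 33.0 and 84.9 CPM in TG.

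Macrophage markers did not follow the direction of Ccl2. All 10 of 10 had a lower level in TG, and none was at 0. At an unadjusted edgeR p under 0.05 were 3 of them (Cd68, Csf1r and Mrc1), as were 9.76% of all genes in this direction. NTG 2 was the highest library for all 10 markers, as for 27.1% of all genes. The markers summed to 1055, 1953 and 1142 CPM in NTG and 808, 992 and 1146 CPM in TG, with TG 3 above NTG 1 and NTG 3. Whether fewer macrophages or less RNA in them plays a part in the chemokine values was not tested.

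Of the macrophage inflammatory CC ligands, Ccl6 and Ccl9 were the abundant pair. Ccl9, a myeloid attractant, stood at 34.8, 84.9 and 51.0 CPM in NTG and 34.3, 32.01 and 47.5 CPM in TG, and Ccl6 at 36.2, 77.1 and 49.9 CPM in NTG and 36.9, 32.3 and 59.2 CPM in TG. In both genes NTG 2 was the highest library. The log2 fold changes were -0.59 ± 0.33 for Ccl9 and -0.35 ± 0.33 for Ccl6, and without NTG 2 they were -0.18 and -0.01.

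Ccl5, an attractant of T cells and monocytes, stood at 2.73, 1.65 and 0.289 CPM in NTG and 0.865, 3.35 and 7.72 CPM in TG. Ccl3 stood at 0.0683, 1.27 and 0.463 CPM in NTG and 0.793, 0.455 and 1.36 CPM in TG, and Ccl4 at 0.478, 1.27 and 0.463 CPM in NTG and 0.577, 1.48 and 1.73 CPM in TG. These low genes overlapped between the groups, and their log2 fold changes of 1.38 ± 0.89 for Ccl5, 0.47 ± 0.78 for Ccl3 and 0.76 ± 0.55 for Ccl4 were under 2 standard errors. Single libraries moved them, Ccl5 to 0.48 without TG 3, 0.88 without NTG 3 and 2.02 without NTG 1. Ccl4 moved to 1.42 without NTG 2 and 0.47 without TG 3. Ccl3 moved to 1.62 without NTG 2 and turned to -0.02 without TG 3. Ccl5 without TG 1 and Ccl4 without NTG 2 were at an unadjusted edgeR p of 0.0421 and 0.0392, with adjusted p of 0.464 and 0.474.

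The eosinophil attractants Ccl11 and Ccl24 were low throughout. Ccl24 stood at 1.71, 1.06 and 1.04 CPM in NTG and 2.09, 1.99 and 1.42 CPM in TG, and Ccl11 at 0.751, 2.23 and 0.579 CPM in NTG and 1.51, 1.08 and 1.42 CPM in TG. Both overlapped between the groups, with log2 fold changes of 0.54 ± 0.33 for Ccl24 and 0.15 ± 0.52 for Ccl11. The value of Ccl11 turned to -0.185 without NTG 3 and came to 1.0 without NTG 2. In the latter fit Ccl11 was at an unadjusted edgeR p under 0.05, as were 5.08% of all genes in this direction, and was not called.

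Among the lymphoid and tissue-homing CC ligands, Ccl27a and Ccl21a had estimates of opposite sign. Ccl27a, known as a skin-homing ligand, stood at 2.32, 2.87 and 1.91 CPM in NTG and 3.10, 3.07 and 3.70 CPM in TG. All TG libraries lay above all NTG libraries, by a small margin, with a log2 fold change of 0.47 ± 0.25 and an edgeR adjusted p of 0.339. Ccl21a, which guides dendritic cells and T cells into lymphatic vessels, was tested from its copy on the unplaced scaffold JH584294.1, at 4.85, 6.32 and 11.6 CPM in NTG and 0.216, 1.08 and 5.31 CPM in TG. TG 3 overlapped with NTG, and the log2 fold change of -1.77 ± 0.87 had an edgeR adjusted p of 0.323 and came to -3.47 without TG 3. The Ccl21a copy on chromosome 4 had 1, 2 and 1 counts in NTG and 16, 1 and 1 in TG, so how reads are split between near-identical copies is uncertain. Ccl25 stood at 2.46, 2.34 and 2.55 CPM in NTG and 2.09, 1.76 and 2.35 CPM in TG. Ccl17 stood at 0.478, 1.22 and 0.579 CPM in NTG and 0.144, 0.512 and 0.864 CPM in TG. Their log2 fold changes were -0.24 ± 0.25 for Ccl25 and -0.57 ± 0.62 for Ccl17, smaller than their standard errors.

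The neutrophil-attracting CXC ligands were all higher on average in TG, with TG 3 far above the other libraries. Cxcl1 stood at 2.12, 7.12 and 3.01 CPM in NTG and 4.83, 3.58 and 22.2 CPM in TG. Cxcl2 stood at 0.887, 2.44 and 1.45 CPM in NTG and 2.38, 1.42 and 7.16 CPM in TG. Cxcl5 stood at 0.410, 4.46 and 0.174 CPM in NTG and 1.15, 0.171 and 17.8 CPM in TG. In each of the 3 genes the other TG libraries lay within the NTG range, apart from Cxcl5 in TG 2, which was just below it. Log2 fold changes were 1.31 ± 0.79 for Cxcl1, 1.18 ± 0.65 for Cxcl2 and 1.88 ± 1.58 for Cxcl5, with edgeR adjusted p of 0.360 to 0.544. Without TG 3 they were 0.03 for Cxcl1, 0.23 for Cxcl2 and -1.43 for Cxcl5. Without NTG 2 they were 1.98 for Cxcl1, 1.63 for Cxcl2 and 4.45 for Cxcl5. The size of these estimates thus depended on single libraries, and the sign of Cxcl5 on TG 3.

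The interferon-inducible CXC ligands Cxcl9 and Cxcl10, which attract activated T cells and natural killer cells, had positive estimates, and that of Cxcl9 was the largest of all members tested. Cxcl9 (ENSMUSG00000029417, chromosome 5, 92321347 to 92328079, minus strand) stood at 14.9, 4.67 and 5.44 CPM in NTG and 14.9, 27.7 and 78.2 CPM in TG. TG 1 was level with NTG 1, and TG 2 and TG 3 lay above all NTG libraries. Means were 40.3 ± 33.5 CPM in TG and 8.33 ± 5.69 CPM in NTG (SD, n = 3), a fitted 4.90-fold difference and a log2 fold change of 2.29 ± 0.72 with an edgeR adjusted p of 0.211. Leaving out single libraries moved it between 1.37, without TG 3, and 2.99, without NTG 1.

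Cxcl10 (ENSMUSG00000034855, chromosome 5, 92346638 to 92348889, minus strand) stood at 3.41, 4.04 and 1.68 CPM in NTG and 3.32, 9.27 and 11.5 CPM in TG. It had the same order of TG libraries as Cxcl9, with TG 1 inside the NTG range. The log2 fold change was 1.41 ± 0.50 with an edgeR adjusted p of 0.221. Its whole span lies inside Art3 on the opposite strand, so the same limit holds as for Ccl2. Their receptor Cxcr3 was under the count filter, with 7, 6 and 2 counts in NTG and 3, 14 and 25 in TG. T cell markers were few in every library, at 7.92, 5.47 and 3.64 CPM summed in NTG and 3.03, 9.66 and 11.4 CPM in TG. Of the 8 markers 5 could be tested, and Cd8a alone had an unadjusted p under 0.05, with a log2 fold change of 1.78 and an edgeR adjusted p of 0.231. Whether T cells play a part in the Cxcl9 and Cxcl10 values was not tested.

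**Figure D2:**
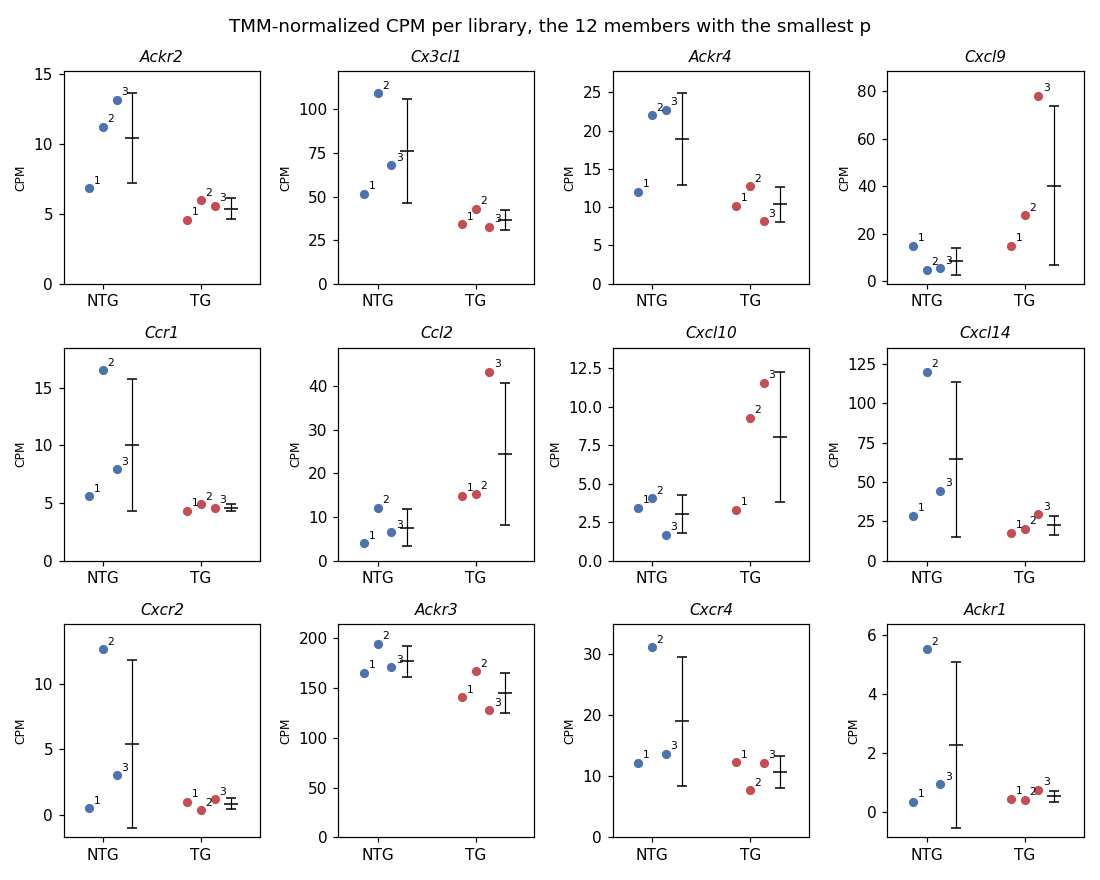
TMM-normalized CPM (vertical axes, linear) in each NTG (blue) and TG (red) library for the 12 members with the smallest p, with the library number beside each point and the mean ± SD of 3 libraries as a black bar. TG 3 is the highest library in Ccl2, Cxcl9 and Cxcl10, and NTG 2 in Cx3cl1, Ccr1, Cxcl14, Cxcr2, Ackr3, Cxcr4 and Ackr1.

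The other CXC ligands were the homeostatic ones. Cxcl14 (ENSMUSG00000021508, chromosome 13, 56288643 to 56296551, minus strand), a stromal ligand, stood at 28.4, 120.2 and 44.4 CPM in NTG and 17.6, 20.2 and 29.3 CPM in TG. NTG 2 was the highest library by far, and TG 3 was just above NTG 1. NTG exceeded TG 2.88-fold in the fit, with a log2 fold change of -1.53 ± 0.54 and an edgeR adjusted p of 0.223, and of -0.70 without NTG 2. Fibroblast markers were also highest in NTG 2, with sums of 4227, 9662 and 6110 CPM in NTG and 2387, 3582 and 2174 CPM in TG, and all 8 of 8 were lower in TG, with none at 0. Their part in the Cxcl14 value was not tested.

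Cxcl16, a membrane-bound ligand of Cxcr6, stood at 26.8, 64.1 and 27.1 CPM in NTG and 16.2, 26.5 and 31.9 CPM in TG, with a log2 fold change of -0.66 ± 0.41. Cxcl12, the ligand of Cxcr4 that holds haematopoietic cells in their niche, stood at 297, 341 and 299.6 CPM in NTG and 357, 334 and 285 CPM in TG. It had the smallest standard error of the ligands, with a log2 fold change of 0.06 ± 0.13 whose sign changed under library-size scaling and without TG 1, and an edgeR adjusted p of 0.830. Cxcl12 took 38.4% to 56.2% of the summed ligand CPM in NTG and 38.6% to 63.4% in TG.

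Cx3cl1 (ENSMUSG00000031778, chromosome 8, 94772009 to 94782427, plus strand), fractalkine, is a membrane-bound adhesion ligand of endothelium and other cells for Cx3cr1. It stood at 51.5, 109 and 67.9 CPM in NTG and 34.1, 43.0 and 32.5 CPM in TG. All TG libraries lay below all NTG libraries, and NTG 2 was the highest. Means were 36.5 ± 5.63 CPM in TG and 76.2 ± 29.7 CPM in NTG (SD, n = 3), a fitted 2.09-fold difference and a log2 fold change of -1.06 ± 0.27, at an adjusted p of 0.196 with edgeR and 0.00719 with DESeq2. It was -0.71 without NTG 2 and -1.28 at most in size when another library was left out. Its receptor Cx3cr1, carried by monocytes and resident macrophages, stood at 4.23, 16.4 and 8.68 CPM in NTG and 4.69, 6.14 and 5.93 CPM in TG. The groups overlapped at NTG 1, and its log2 fold change was -0.81 ± 0.45 with an edgeR adjusted p of 0.364. It came to -0.21 without NTG 2 and to -1.17 without NTG 1. The annotated span of Cx3cr1 covers several other genes on both strands, which adds to the uncertainty of its count. Endothelial markers summed to 1619, 1593 and 1821 CPM in NTG and 1841, 1842 and 1686 CPM in TG, with 4 of 7 higher and 3 lower in TG. Their part in the Cx3cl1 value was not tested.

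Of the CC receptors, Ccr1 had the smallest p. Ccr1 (ENSMUSG00000025804, chromosome 9, 123962124 to 123968692, minus strand), a receptor of monocytes and neutrophils, stood at 5.60, 16.5 and 7.93 CPM in NTG and 4.33, 4.89 and 4.57 CPM in TG. The TG libraries lay close together and below all NTG libraries. The log2 fold change was -1.13 ± 0.38, a fitted 2.18-fold difference, with an edgeR adjusted p of 0.215, and -0.56 without NTG 2. Ccr7, the receptor of Ccl21a on dendritic cells and T cells, stood at 1.09, 1.27 and 0.521 CPM in NTG and 0.288, 1.02 and 0.494 CPM in TG. Ccr10 stood at 1.297, 0.372 and 0.694 CPM in NTG and 0.577, 0.739 and 0.988 CPM in TG. These low receptors had log2 fold changes of -0.64 ± 0.55 for Ccr7 and 0.00 ± 0.47 for Ccr10. Of the ligands that Ccr1 binds, Ccl3, Ccl5 and Ccl7 had positive estimates and Ccl6 and Ccl9 negative ones, none at an unadjusted p under 0.05.

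Cxcr2 (ENSMUSG00000026180, chromosome 1, 74153989 to 74161246, plus strand), the receptor by which neutrophils follow Cxcl1, Cxcl2 and Cxcl5, stood at 0.478, 12.7 and 3.01 CPM in NTG and 1.01, 0.341 and 1.17 CPM in TG. NTG 1 lay within the TG range, and NTG 2 was far above all. The log2 fold change was -2.70 ± 1.10 with an edgeR adjusted p of 0.257, and -1.09 without NTG 2. Neutrophil markers showed the same order, at 9.42, 256 and 37.4 CPM summed in NTG and 13.9, 8.41 and 16.9 CPM in TG. All 4 tested of 7 were lower in TG, and all 4 were highest in NTG 2. At an unadjusted edgeR p under 0.05 were 3 of them, as were 9.76% of all genes in this direction. The groups overlapped in all 4, and Ly6g and Mpo lay below 1 CPM in every library. The part of neutrophils in the Cxcr2 value was not tested. The receptor was thus highest in NTG 2, and its ligands in TG 3.

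Cxcr4, the receptor of Cxcl12, stood at 12.2, 31.1 and 13.7 CPM in NTG and 12.3, 7.73 and 12.2 CPM in TG. NTG 2 alone was far from the rest, and the log2 fold change was -0.83 ± 0.39 with an edgeR adjusted p of 0.300, and -0.28 without NTG 2. Cxcr6, a T cell receptor for Cxcl16, stood at 1.16, 2.496 and 1.21 CPM in NTG and 0.865, 2.73 and 1.73 CPM in TG. Xcr1, a receptor of cross-presenting dendritic cells, stood at 0.751, 0.425 and 0.405 CPM in NTG and 0.505, 1.14 and 1.296 CPM in TG. Their groups overlapped, with log2 fold changes of 0.13 ± 0.48 for Cxcr6 and 0.92 ± 0.48 for Xcr1, the highest of the receptors. The 6 dendritic cell markers summed to 48.3, 42.1 and 39.2 CPM in NTG and 64.1, 52.1 and 66.6 CPM in TG, with none at 0. All TG libraries lay above all NTG libraries in this sum and for 2 of its genes, Zbtb46, which held most of it, and Clec9a, as in 11.2% of all genes. Zbtb46 had a log2 fold change of 0.65, at an adjusted p of 0.196 with edgeR and 0.0377 with DESeq2, Clec9a had 0.32 at an edgeR adjusted p of 0.361, and the other 4 lay between -0.16 and 0.03. The part of dendritic cells in the value of Xcr1 was not tested.

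The atypical receptors were lower in TG in 4 of 4 genes. Ackr2 (ENSMUSG00000044534, chromosome 9, 121898355 to 121911074, plus strand), which takes up and degrades inflammatory CC ligands such as Ccl2, is known on lymphatic endothelium. It stood at 6.83, 11.2 and 13.1 CPM in NTG and 4.54, 5.97 and 5.56 CPM in TG. All TG libraries lay below all NTG libraries. Means were 5.36 ± 0.733 CPM in TG and 10.4 ± 3.23 CPM in NTG (SD, n = 3), a fitted 1.94-fold difference and a log2 fold change of -0.95 ± 0.25, at an adjusted p of 0.196 with edgeR and 0.0325 with DESeq2. Leaving out NTG 2 gave -0.90 and leaving out TG 3 gave -0.98, while without NTG 1 it was -1.18 and was called lower at an edgeR adjusted p of 0.0224. Of the inflammatory CC ligands that Ackr2 is known to bind, Ccl2, Ccl3, Ccl4, Ccl5, Ccl7, Ccl11 and Ccl12 had positive estimates. Those of Ccl8 and Ccl17 were negative. Of these ligands Ccl2 alone was at an unadjusted edgeR p under 0.05, and Ccl3, Ccl11 and Ccl12 changed sign under some alternatives.

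Ackr4, a scavenger of Ccl19, Ccl21 and Ccl25, stood at 12.01, 22.0 and 22.7 CPM in NTG and 10.2, 12.7 and 8.15 CPM in TG. Only TG 2 and NTG 1 overlapped. The log2 fold change was -0.87 ± 0.27 with an edgeR adjusted p of 0.204. Its span on chromosome 9, 104084157 to 104126933 on the minus strand, lies wholly inside Acad11 on the opposite strand, with the same limit. Of its ligands, Ccl21a and Ccl25 had negative estimates too, and Ccl19 was at 0 in every library.

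Ackr3, a scavenger of Cxcl12, stood at 165, 194 and 171 CPM in NTG and 141, 167 and 127 CPM in TG, with TG 2 inside the NTG range. Its log2 fold change was -0.29 ± 0.13 with an edgeR adjusted p of 0.275. Ackr1, which holds ligands on venules and red cells, stood at 0.341, 5.52 and 0.926 CPM in NTG and 0.433, 0.398 and 0.741 CPM in TG. NTG 2 alone was high, and the log2 fold change of -2.12 ± 0.99 came to -0.30 without it. Erythroid markers were lower in TG in 5 of 5 genes, with sums of 1310, 2245 and 1851 CPM in NTG and 908, 762 and 862 CPM in TG. Their part in the Ackr1 value was not tested.

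Lymphatic endothelial markers, which stand for cells that carry Ackr2 and Ackr4, had negative estimates in 5 of 6 genes. Mmrn1, Pdpn and Reln had an unadjusted p under 0.05, as 9.76% of all genes had in this direction, with all TG libraries below all NTG libraries, as in 12.3% of all genes. None of the 3 was called by edgeR, at an adjusted p of 0.196 each, and DESeq2 called them lower at adjusted p of 0.00285, 0.00587 and 0.00477, while Prox1, Lyve1 and Flt4 had log2 fold changes of -0.04, -0.04 and 0.05. Summed levels were 190, 245 and 246 CPM in NTG and 193, 190 and 180 CPM in TG, and no marker was at 0. The part of lymphatic vessels in the Ackr2 and Ackr4 values was not tested.

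**Figure D3:**
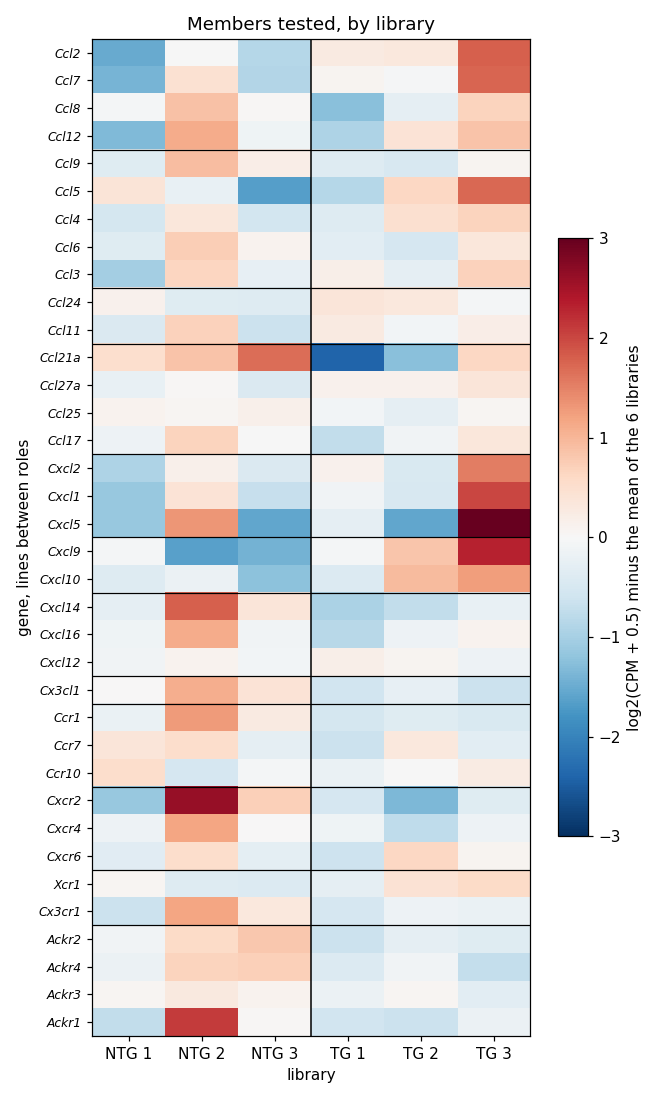
Deviation of log2(CPM + 0.5) from the mean of the 6 libraries (colour, red above and blue below) for 36 of the 37 members tested (rows, with lines between roles) in each library (columns). The red column of NTG 2 is densest among receptors and that of TG 3 among ligands: NTG 2 was the highest library for 8 of 13 receptors and TG 3 for 11 of 24 ligands.

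Much of this pattern followed single libraries. NTG 2 was the highest of the 6 libraries for 17 of the 37 members tested, or 45.9%, against 27.1% of all genes, and TG 3 for 12, or 32.4%, against 16.8%. Ligands took their highest level in TG 3 in 11 of 24 genes, receptors in 1 of 13. Without both NTG 2 and TG 3, a choice made after the values had been seen, Ccl2 had a log2 fold change of 1.52, Cxcl9 1.08, Cx3cl1 -0.63, Cxcl14 -0.95 and Ackr2 -0.92, all in the same direction as with 6 libraries. At an unadjusted p under 0.05 there were then 2 members higher (Ccl2 and Ccl7) and 4 lower (Cx3cl1, Cxcl14, Ackr2 and Ccl21a) of the 32 tested, against 3.31% and 3.36% of all genes. Of the members under 0.05 with 6 libraries, Cxcl9, Cxcl10, Ccr1, Cxcr2 and Ackr4 were no longer so, at unadjusted edgeR p of 0.105, 0.0605, 0.0791, 0.177 and 0.103.

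**Figure D4:**
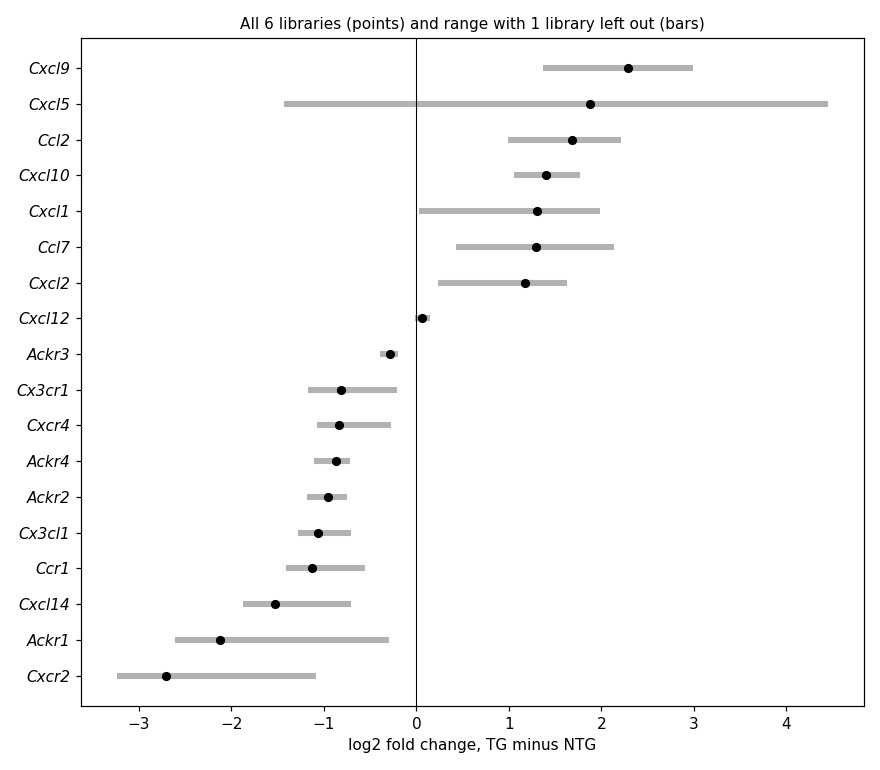
Log2 fold change of TG against NTG (horizontal axis) for 18 members with all 6 libraries (points) and the range of the 6 values with a single library left out (grey bars). The bar of Cxcl5 crosses 0 from -1.43 to 4.45, and that of Ackr2 stays on the left of 0.

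Without the library labelled NTG 1, edgeR called 4 members lower (Ackr2 at an adjusted p of 0.0224, Ackr4 at 0.0239, Cx3cl1 at 0.0342 and Ccr1 at 0.0406) and 0 higher. Of all genes it then called 2.85% lower and 2.67% higher. The log2 fold changes were then -1.18 for Ackr2, -1.11 for Ackr4, -1.28 for Cx3cl1 and -1.41 for Ccr1, and those of Cxcr2 and Ccl2 were -3.24 and 1.38. Ccl2 and Cxcl10 were no longer at an unadjusted p under 0.05. In the 4 called genes NTG 1 was the NTG library nearest to TG. The likelihood-ratio test of edgeR, which ignores the uncertainty of the dispersion, called Cxcl9 higher and Ackr2 and Cx3cl1 lower, where it called 1.39% of all genes higher and 2.29% lower. Without a low-count filter edgeR called Ackr2 lower, with 0.432% of all genes called in each direction.

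Between genes, levels were compared as CPM per kilobase of exon length, averaged over the 6 libraries. Ackr3 was first at 48.0 ± 7.07 CPM per kilobase (SD, n = 6), followed by Cxcl12 at 39.0 ± 3.54, Ccl6 at 27.1 ± 9.59 and Cxcl14 at 23.7 ± 21.2. The libraries of Ackr3 and Cxcl12 overlapped, and Ccl6 and Cxcl14 did not differ beyond their spread. The place of Cxcl14 rested mainly on NTG 2, with 15.5, 65.8 and 24.3 CPM per kilobase in NTG and 9.63, 11.05 and 16.05 in TG. Ccl2 stood at 13.1, 13.5 and 38.0 in TG. Next came Ccl8 at 16.5 ± 8.14, Ccl9 at 15.6 ± 6.55, Cx3cl1 at 14.3 ± 7.36 and Ccl2 at 14.1 ± 12.4, which also overlapped. The signalling receptors were lower, with Cxcr4 at 8.21 ± 4.54, Ccr1 at 2.58 ± 1.66, Cx3cr1 at 1.70 ± 1.01 and Cxcr2 at 1.02 ± 1.57 CPM per kilobase. By the mean over the 6 libraries, an atypical receptor and its ligand, Ackr3 and Cxcl12, thus stood highest per length. The order was not the same in every library, since in NTG 2 Cxcl14 at 65.8 lay above Ackr3 at 58.1 and Ccl6 at 42.9 above Cxcl12 at 41.7, and in TG 3 Ccl2 at 38.0 lay above Cxcl12 at 34.8 CPM per kilobase.

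Chromosome 11 holds 14 members, chromosome 9 holds 12 and chromosome 5 holds 10, of which some lie close together and others far apart. Estimates on chromosome 11 had both signs. In the run that starts with Ccl2, the log2 fold changes were 1.68 for Ccl2, 1.3 for Ccl7 at 10.1 kb, 0.15 for Ccl11 at 22.3 kb, 0.07 for Ccl12 at 66.3 kb and -0.45 for Ccl8 at 79.6 kb from its start. The second run held Ccl5 at 1.38, Ccl9 at -0.59, Ccl6 at -0.35, Ccl3 at 0.47 and Ccl4 at 0.76. On chromosome 5 all 5 tested member ligands of the plotted runs, Cxcl5, Cxcl1, Cxcl2, Cxcl9 and Cxcl10, had positive estimates. Without TG 3 those of Cxcl5, Cxcl1 and Cxcl2 came to -1.43, 0.03 and 0.23. Ppbp and Pf4, ligands outside the rule that lie between Cxcl5 and Cxcl3, had log2 fold changes of -0.96 and 0.08. On chromosome 9 Ccr1 was at -1.13 while Cxcr6 and Xcr1, which lie before Ccr1, were at 0.13 and 0.92.

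**Figure D5:**
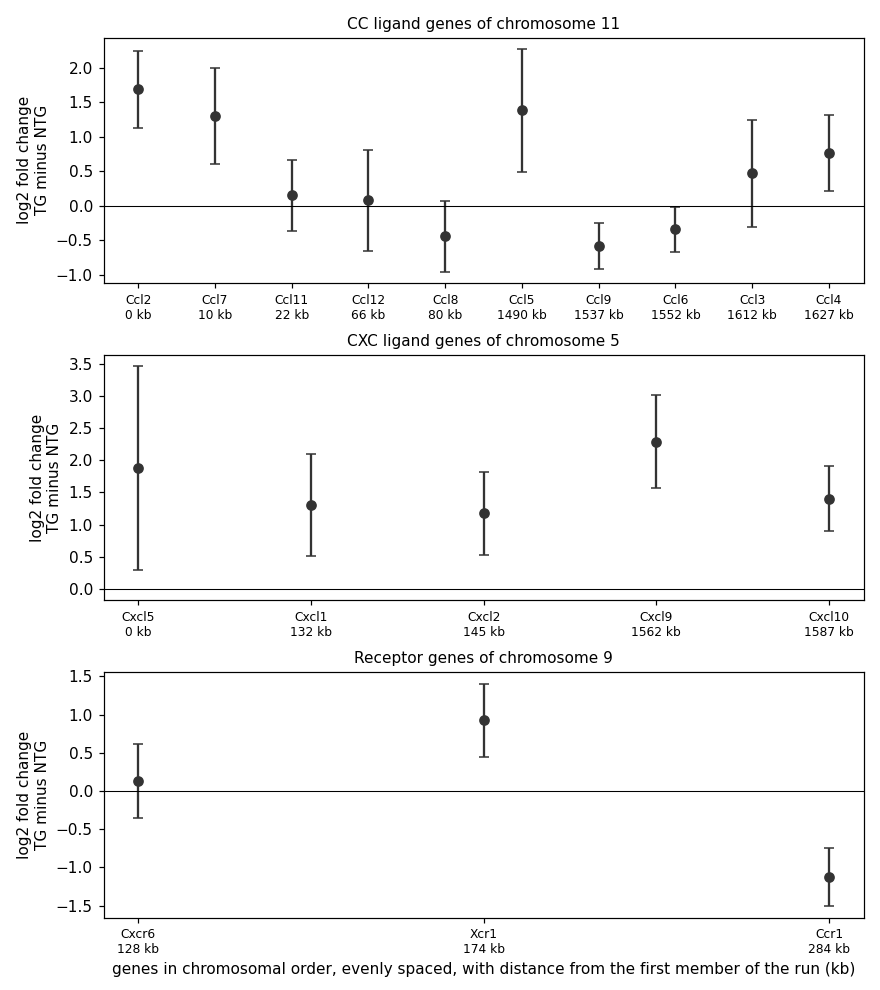
Log2 fold change of TG against NTG with its standard error (vertical axes) for tested CC ligands, CXC ligands and receptors in chromosomal order within gene clusters of chromosomes 11, 5 and 9, evenly spaced, with the distance in kilobases from the first member of the run under each name. Among the CC ligand genes plotted for chromosome 11 the estimates lie on both sides of 0, from 1.68 for Ccl2 to -0.59 for Ccl9.

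The genes that carry the signal from chemokine receptors into the cell were followed as a list of 58 transducers, of which 57 were tested. They cover G proteins, arrestins and receptor kinases, phosphoinositide 3-kinases, exchange factors, tyrosine kinases and transcription factors. Higher in TG were 13 and lower 44, with a median log2 fold change of -0.12, and NTG 2 was the highest library for 36 of them. At an unadjusted p under 0.05, 2 were higher, 3.51% against 8.83% of all genes, and 7 lower, 12.3% against 9.76%. The smallest p belonged to Tiam1, Elmo1 and Grk5. Tiam1 is an exchange factor for Rac, Elmo1 acts with exchange factors for Rac in cell migration, and Grk5 is a kinase that desensitizes receptors. Their log2 fold changes were -0.73 for Tiam1, -0.50 for Elmo1 and -0.62 for Grk5, with edgeR adjusted p of 0.204, 0.207 and 0.211. Without NTG 1 all 3 were called lower, with edgeR adjusted p of 0.0370, 0.0320 and 0.0208. In that fit 2.85% of all genes were called lower.

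The 28 member rows under the count filter complete the list. Of these 6 were at 0 in every library: Ccl26, Ccl20, both Ccl19 rows, a scaffold copy of Ccl27a and the chromosome 4 copy of Ccl21b. The other 22 had at most 44 counts in any library. Ccl22, a ligand that attracts regulatory T cells, had 7, 7 and 4 counts in NTG and 6, 17 and 37 in TG. Xcl1, the ligand of Xcr1, had 2, 0 and 0 counts in NTG and 0, 7 and 6 in TG. Cxcl13, a B cell attractant, had 3, 44 and 11 counts in NTG and 7, 0 and 9 in TG. Cxcl3 had 0, 14 and 0 counts in NTG and 6, 0 and 18 in TG, and Cxcl15 had counts in TG 3 only, 12 of them. These neutrophil ligands followed Cxcl1, Cxcl2 and Cxcl5 in peaking in TG 3. Other receptors had few counts, with at most 8 in any library for Cxcr5, 6 for Ccr9, 5 for Ccr3 and 1 each for Ccr4, Ccr6 and Ccr8. With no low-count filter, Ccl22, Cxcl15 and Cxcr3 had an unadjusted p under 0.05 in edgeR, as had 6.08% of all genes in the higher and 6.35% in the lower direction, and none of the 3 was called. In that fit Ccl2, Cxcl9, Cxcl10, Cxcl14 and Cxcr2 were no longer under 0.05, at unadjusted edgeR p of 0.0715, 0.0607, 0.0600, 0.0812 and 0.114.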

How the data were processed

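Left ventricular poly-A RNA was sequenced 4 weeks after AB in 3 TG and 3 NTG mice. Per the labels and the study's methods, reads were cleaned with in-house scripts and counted per gene with featureCounts, and the submitters' processing notes name HISAT2 and DESeq2. These notes give the build as GRCh38, but gene identifiers are those of the mouse, and all 65 member rows had the start and end of GENCODE M21 (GRCm38), which is used for positions. The authors deposited raw counts, 1 column per library, with 0 columns left unmatched. Strand setting and the handling of reads with several positions are not given in the sources used here, so the members with near-identical copies (11 rows of 5 symbols) are uncertain.

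The counts were fitted with edgeR 4.0.16 in R 4.3.3 (TMM, filterByExpr by group, robust dispersions, glmQLFit and glmQLFTest, two-sided, no covariate). The standard error is the log2 fold change divided by the square root of the F statistic. DESeq2 1.42.0, limma-voom (limma 3.58.1), other scalings and filters, and leaving out each library were among 19 alternatives, and 1 was added after the values had been seen. The fit was first tested on simulated data. Depth was similar in all libraries, and counting error weighs most on members with few counts. Some genes are not reported here, although counts over the members and lists include them. The members and lists were chosen with earlier results of these data known. Named with full values were the 12 members with the smallest p, the most abundant member of each role, their textbook partners and the 3 transducers with the smallest p. The other tested members and the untested ones named in the text were added after their values were seen.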

Additional observations from a re-analysis of the deposited data

How the results depend on the processing

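The call of 0 members higher and 0 lower changed with the test. With no low-count filter 1 member was called lower, with the likelihood-ratio test 2 lower and 1 higher, and with DESeq2, filtered or not, 2 lower. Leaving out single libraries gave 0 to 4 called lower, 0 to 7 higher at an unadjusted p under 0.05 (0 without NTG 3, 6 without NTG 2 and 7 without TG 1, where 5.15%, 5.08% and 4.98% of all genes were higher) and 3 to 12 lower (3 without TG 1 and 12 without NTG 1, where 5.62% and 13.3% of all genes were lower). The median log2 fold change of the members then ran from -0.365 (without TG 3) to 0.0559 (without NTG 2), and that of the transducers from -0.183 to -0.0218, with 0 to 2 transducers higher (0 without NTG 1, NTG 2 or TG 2, where 13.7%, 5.08% and 9.08% of all genes were higher) and 1 to 14 lower (1 without TG 1 and 14 without NTG 1, where 5.62% and 13.3% of all genes were lower). In the transducers, 1 was higher under library size alone, no filter, voom and the replicate block. Library size alone moved the median of all genes to -0.0926 and that of the members to -0.33. Whether the replicate numbers pair the libraries was not settled. Same-numbered libraries correlated at 0.0807, 0.173 and -0.252 in their deviations, and not every library correlated best with its own number. The deviations are taken from means of only 3 libraries, so these correlations cannot exclude a pairing by replicate number. With the numbers as a replicate block 1 member was called lower (Cx3cl1), with 147 of all genes called lower and 84 higher, and at an unadjusted p under 0.05 1 member was higher and 7 lower, against 11.2% and 10.7% of all genes. Values of single genes below are log2 fold changes. Ccl12 changed sign with library size alone (-0.0261) and without NTG 1 (-0.36), NTG 3 (-0.0881) or TG 3 (-0.365), reaching 0.998 without NTG 2, Ccl3 without NTG 1 (-0.0187) or TG 3 (-0.0209), reaching 1.62 without NTG 2, Ccl11 without NTG 1 (-0.0896) or NTG 3 (-0.185), reaching 1.0 without NTG 2, Cxcl5 without TG 3 (-1.43), reaching 4.45 without NTG 2, and Cxcl12 with library size alone (-0.0309) or without TG 1 (-0.0182), reaching 0.143 without TG 3. Fewer libraries enter each fit that leaves 1 out, and otherwise the cause was not tested.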

Other observations

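Some chemokine genes outside the rule had counts as well. Cxcl11, the third interferon-inducible ligand of the Cxcr3 group, is annotated as a polymorphic pseudogene in this mouse and had 0, 0 and 1 counts in NTG and 4, 8 and 17 in TG, too few to be tested. Pf4, the platelet ligand known as CXCL4, stood at 24.5, 28.3 and 19.5 CPM in NTG and 26.0, 24.6 and 26.1 CPM in TG, with a log2 fold change of 0.08 ± 0.14. Ppbp, another platelet ligand, stood at 6.35, 4.35 and 1.39 CPM in NTG and 2.02, 0.966 and 3.21 CPM in TG, with a log2 fold change of -0.96 ± 0.61. Ccrl2, an atypical receptor for chemerin, stood at 12.01, 7.38 and 9.55 CPM in NTG and 11.6, 12.6 and 15.4 CPM in TG, with a log2 fold change of 0.46 ± 0.20 and an edgeR adjusted p of 0.276.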
